A study of Mus musculus with 28 samples.

Results

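The 31 genes described here make, sense, move and remove cholesterol. They were taken by symbol from a list that was drawn up with earlier results of these data known, and the rule itself used no measured value. The list held 7 enzymes that lead from acetyl-CoA to farnesyl diphosphate, 11 enzymes that turn farnesyl diphosphate into cholesterol, 5 genes of SREBP control, 6 genes of transport, storage and turnover, and 2 enzymes of fatty acid synthesis. All 31 were found among the 13846 genes listed for embryonic cortex and among the 14104 listed for adult prefrontal cortex (PFC), and all 31 passed the filter on low values in both tissues.

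The mice carried 0, 1 or 2 knockout alleles of Myt1l, a gene for a zinc-finger protein that controls transcription in neurons. Embryonic (E14.5) cortex gave 6 wild-type (WT), 6 heterozygous (Het) and 4 homozygous (Hom) libraries, and adult PFC gave 6 WT and 6 Het libraries. No treatment, strain or adult age is given in the labels used here, and WT animals of the line are the only controls. Each library has its own animal identifier, and libraries are named below by labelled sex and number (F05 is labelled female). Of the embryos, 5 of 6 WT, 3 of 6 Het and 3 of 4 Hom were labelled female, while each PFC group held 3 females and 3 males.

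Brain cholesterol is made inside the brain, because lipoproteins of the blood do not cross its barrier. Cells make it from acetyl-CoA through mevalonate, squalene and lanosterol, and most enzymes of this route are transcribed together by SREBP2 when membranes hold little sterol. In the adult brain much of it is made by glia and passed to neurons on ApoE particles, and neurons remove the surplus by hydroxylating it with CYP46A1.

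Values are CPM (counts scaled to the total of each library) recovered from the authors' deposited log2 values, and sequencing depth is unknown. Whole numbers recovered with these CPM values summed to 27827467 at the least and 30811856 at the most in embryos, and to 19601294 and 21275162 in the PFC. A gene is described as called when its adjusted p was under 0.05 in limma, with Benjamini-Hochberg adjustment over all 12429 genes tested at E14.5 or all 12870 in the PFC. Changes are differences of log2(CPM + 0.5), which understate the change of genes with low CPM. Myt1l itself stood at 18.1, 18.7, 20.8 and 23.3 CPM in the Hom embryos against 45.9 to 66.6 CPM in WT embryos, and at 105 to 121 CPM in Het PFC against 146 to 168 CPM in WT PFC. The Het embryos overlapped the WT embryos, at 30.6 to 59.5 CPM. Het F10 and Het M11 went against their labelled sex in a Y-linked transcript. In bulk tissue, fewer cells of a type and less RNA per cell cannot be told apart. The p-values measure the spread between these libraries, 1 per animal, that was left after the authors' removal of unwanted variation. In these values 2 directions of variation between libraries were almost empty at E14.5 and 1 in the PFC. The main fit does not allow for these removed directions, so its p-values may be too small.

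Among the 31 genes, Cyp46a1 and Apoe differed most between WT embryos and WT adults. Cyp46a1, the neuronal cholesterol 24-hydroxylase, was at 0.914 ± 0.143 CPM (SD, n = 6) in embryonic cortex and at 379 ± 19.5 CPM (n = 6) in adult PFC, a ratio of 415. Apoe, the main lipid carrier of astrocytes, went from 16.1 ± 8.64 to 5054 ± 401 CPM, a ratio of 314. Abcg1, which exports sterol from cells, was at 44.6 ± 4.31 and 163 ± 8.77 CPM. All 6 WT libraries of the adult lay above all 6 of the embryo for each of these genes, while the other genes of transport and storage, Abca1, Soat1 and Stard4, overlapped between the ages. The tissues were normalized separately by the authors, so these are levels side by side, with no test.

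**Figure D1:**
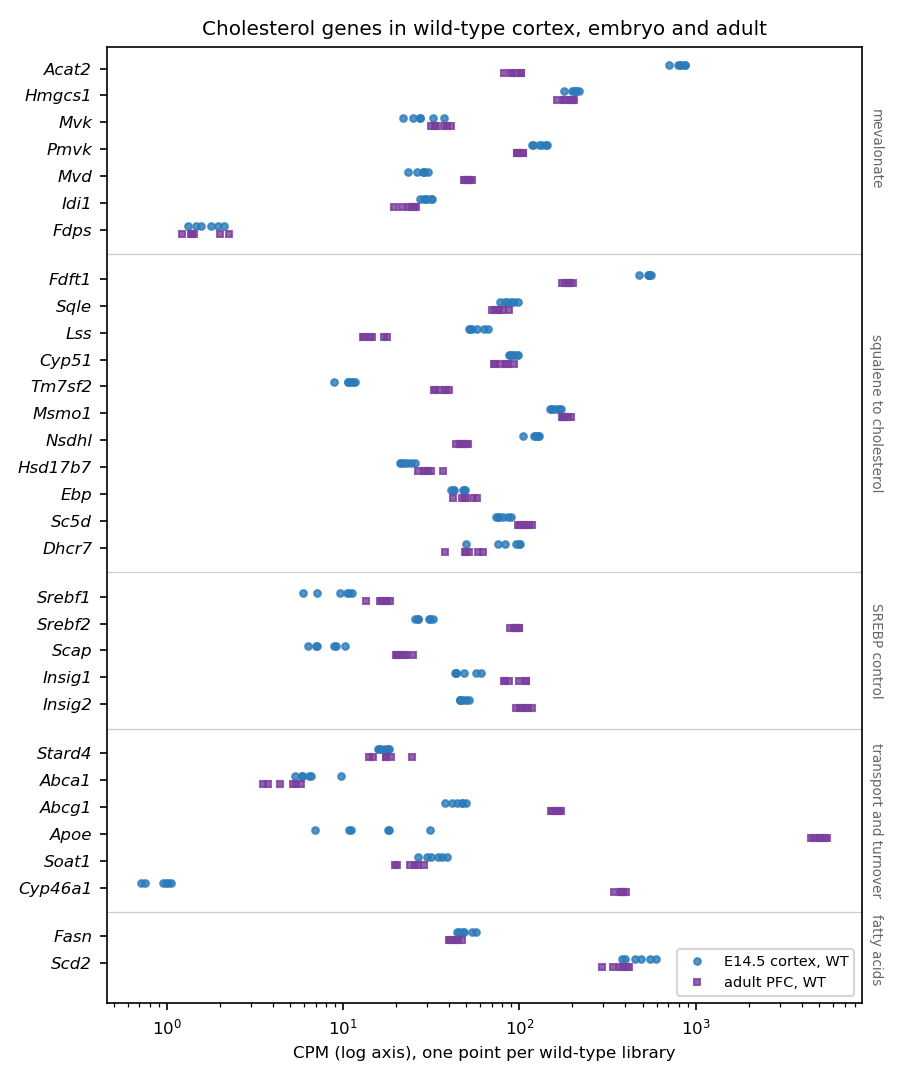
CPM of each of the 31 genes in the 6 WT libraries of E14.5 cortex (circles) and the 6 of adult PFC (squares), on a log axis, grouped by role. Cyp46a1 and Apoe lie far to the right in the adult (379 and 5054 CPM), and Acat2 lies far to the right in the embryo (814 CPM).

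The synthesis enzymes did not shift as a block between the ages. Acat2, the cytosolic thiolase that condenses acetyl-CoA at the entry of the route, was 8.67 times as high in the embryo, at 814 ± 61.6 against 93.9 ± 7.56 CPM. Lss, the cyclase that forms lanosterol, was 3.85 times as high in the embryo, Fdft1 (squalene synthase) 2.83 times and Nsdhl (a sterol demethylating enzyme) 2.56 times. Pmvk, which phosphorylates mevalonate phosphate, and Idi1, the isopentenyl diphosphate isomerase, were also higher in every WT embryo than in every WT adult, by 1.31 and 1.28 times. In the opposite direction, Tm7sf2, a sterol reductase, was 3.39 times as high in the adult, Mvd, which decarboxylates mevalonate diphosphate, 1.85 times, Hsd17b7 1.34 times, Sc5d 1.33 times and Msmo1 1.14 times. Hsd17b7 is the ketone reductase, Sc5d the desaturase and Msmo1 the methyl oxidase of the late steps. All 5 genes of SREBP control were higher in every adult than in every embryo, from 1.81 times for Srebf1, the factor of fatty acid genes, to 3.30 times for Srebf2, the factor of cholesterol genes. In all, 13 of the 31 genes had every adult above every embryo, 6 had every adult below, and 12 overlapped. Over the 11581 genes tested in both tissues, 42.8% had every WT adult above every WT embryo and 31.7% had every adult below.

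Levels of different genes were compared per kilobase of the longest annotated transcript. That transcript need not be the one expressed, so the order of genes is approximate. In WT embryonic cortex the order was led by Acat2, with 362 CPM per kb, then Fdft1 with 144, Pmvk with 110.0, Scd2, the stearoyl-CoA desaturase of brain, with 87.6, and Hmgcs1, the HMG-CoA synthase, with 58.7. In WT adult PFC it was led by Apoe with 3589 CPM per kb and Cyp46a1 with 179, followed by Pmvk with 83.9, Scd2 with 67.8 and Msmo1 with 61.5. Pmvk and Scd2 thus held the ranks 3 and 4 at both ages, while Cyp46a1 moved from rank 31, the lowest, to rank 2. Fdps, the farnesyl diphosphate synthase, had only 0.575 and 0.544 CPM per kb. Fdps shares 7512 bases on the same strand with the annotated gene Gm43738, so its reads may have been split or discarded in the authors' counting and its values are uncertain.

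In Hom embryos 5 of the 31 genes were called lower than in WT, and all 5 are enzymes of cholesterol synthesis. They were Acat2 and Pmvk of the mevalonate steps and Fdft1, Nsdhl and Hsd17b7 of the steps after farnesyl diphosphate. The fitted log2 changes lay between -0.41 and -0.25. No gene of the 31 was called higher. Over all tested genes, 4.37% were called lower and 3.23% higher in Hom embryos. An unadjusted limma p under 0.05 was found in Hom for 8 of the 31 genes, beside 2885 of all 12429, which is a similar share.

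Acat2 ran from 705 to 874 CPM in WT embryos with a median of 822, from 581 to 788 CPM in Het embryos with a median of 696, and stood at 651, 656, 669 and 674 CPM in the Hom embryos. Every Hom library lay below every WT library, and the higher Het libraries reached past WT F05, the lowest of its group. Its log2 change was -0.30 in Hom (SE 0.07, limma adjusted p = 0.0130) and -0.25 in Het (SE 0.07, adjusted p = 0.0279).

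Fdft1, which commits farnesyl diphosphate to sterols, ran from 477 to 562 CPM in WT with a median of 542, from 428 to 502 CPM in Het with a median of 458, and stood at 384, 433, 443 and 452 CPM in Hom. All Hom libraries lay below all WT libraries. Without WT F05, which stands apart at the low end, the next WT library was at 534 CPM, above every Het library too. In limma it differed from WT by -0.32 (log2) in Hom (SE 0.07, adjusted p = 0.00552) and -0.22 in Het (SE 0.06, adjusted p = 0.0396). The Het call was the less steady one, with a change of -0.11 after a correction for GC content and length and no call in that fit. Fdft1 overlaps Ctsb on the opposite strand over 774 bases, and whether the authors counted by strand is not given in the sources used here.

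Hsd17b7 ran from 21.1 to 25.5 CPM in WT with a median of 22.6, from 15.6 to 20.2 CPM in Het with a median of 17.5 CPM, and stood at 14.6, 17.1, 18.1 and 19.2 CPM in Hom. Neither mutant group overlapped WT. The fitted difference on the log2 scale was -0.41 in Hom (SE 0.11, limma adjusted p = 0.0184) and -0.42 in Het (SE 0.10, adjusted p = 0.0158). The Hom call was lost without Hom F04 (-0.35) or Hom M02 (-0.41), and the Het call without WT M03 (-0.40).

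Lss ran from 52.1 to 66.6 CPM in WT with a median of 55.5, from 32.2 to 52.0 CPM in Het with a median of 41.7, and stood at 42.4, 42.4, 45.6 and 50.4 CPM in Hom. Again neither mutant group overlapped WT, although the highest Het library, M07, lay just under the lowest WT library. The change passed the test in Het, at -0.47 (SE 0.11, limma adjusted p = 0.0119), and not in Hom, at -0.34 (SE 0.11, adjusted p = 0.0638). Without Het F07, the lowest library, the Het change was -0.37 and was not called. Among the 11 libraries with the most common identifier prefix it was -0.31. Lss overlaps an antisense gene, 4930483K19Rik, over 11268 bases.

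**Figure D2:**
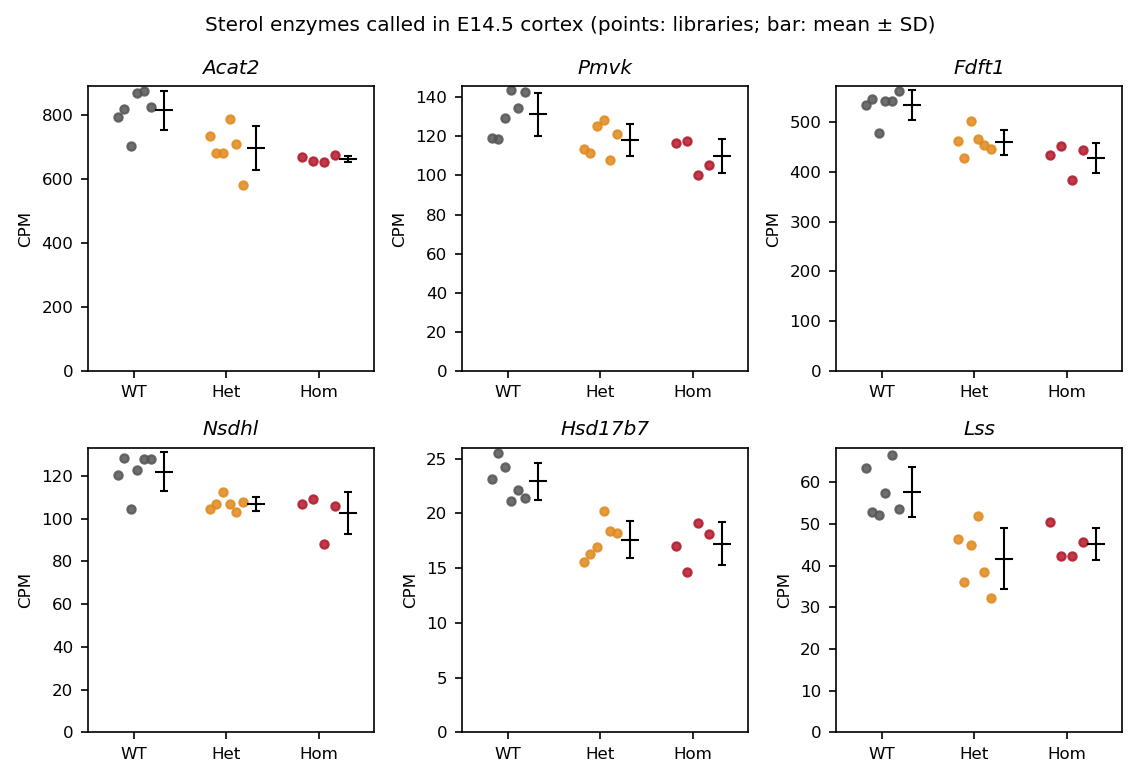
CPM of the 6 sterol enzymes called in Hom or Het E14.5 cortex, 1 panel per gene, with 1 point per library and the group mean ± SD beside the points, on axes that start at 0. For Hsd17b7 and Lss no Het or Hom library reaches the WT range. For Nsdhl both mutant groups overlap WT through a single low WT library at 104.5 CPM.

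Nsdhl stood at 88.0, 106, 107 and 109 CPM in Hom against 105 to 128 CPM in WT, with a WT median of 125. The overlap came from WT F05 alone, and all other WT libraries were at 120.4 CPM or more. Pmvk stood at 100.1, 105, 117 and 117.9 CPM in Hom against 118.5 to 144 CPM in WT, with no overlap but a narrow gap. Both had a log2 change of -0.25 in Hom (SE 0.08), with limma adjusted p = 0.0423 for Nsdhl and 0.0476 for Pmvk. In Het embryos, Nsdhl was at 103 to 113 CPM with a change of -0.20 and Pmvk at 108.0 to 128 CPM with a change of -0.12, and neither was called.

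In Het embryos 4 of the 31 genes were called lower and 0 higher, the 4 being Acat2, Fdft1, Lss and Hsd17b7. Over all tested genes, 2.98% were called lower and 2.84% higher in Het embryos. An unadjusted limma p under 0.05 was found in Het for 6 of the 31 genes, beside 2772 of all 12429. The Hom and Het comparisons share their WT libraries, so the recurrence of Acat2, Fdft1 and Hsd17b7 in both is not independent. The Hom group lay wholly below WT in 5 of the 31 genes, which were Acat2, Pmvk, Fdft1, Lss and Hsd17b7, against 5.11% of all tested genes. The Het group lay wholly below WT in 2, Lss and Hsd17b7, against 1.33% of all tested genes.

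Hom and Het embryos were not told apart in any of the 31 genes. In Hom against Het, 0 of 31 were called in limma in either direction, against 0.00805% of all tested genes called lower and 0 called higher. An unadjusted p under 0.05 was found for 0 of the 31, beside 636 of all 12429 genes. Even so, the intervals are wide enough to hold a difference: the 95% interval of the Hom minus Het change ran from -0.20 to 0.10 for Acat2 and from -0.11 to 0.37 for Lss.

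The calls depended on single libraries. Without Hom F04 or Hom M02 the number of genes called lower in Hom fell from 5 to 2, and without Hom F01, Hom F09, WT F04, WT F06, WT F09 or WT M03 it fell to 3. Acat2 and Fdft1 stayed called in Hom without any 1 library. The number called lower in Het fell from 4 to 2 without WT F04, WT F06 or WT M03, and to 1 without Het F07. The lower calls over all tested genes fell in these fits too. In Hom they went from 543 to 330 without Hom F04 and to 347 without Hom M02. In the Hom fits with 3 genes called, they lay between 278 (without Hom F09) and 488 (without WT M03). In Het they went from 371 to 77 without Het F07, 170 without WT F04, 225 without WT F06 and 316 without WT M03. Within the more common identifier prefix, 14424, which has 3 Hom, 4 Het and 4 WT libraries, 0 of the 31 genes were called in either comparison, in a fit that called only 27 genes higher and 41 lower in Hom and 0 and 0 in Het over all 12429. The direction held in both prefixes for every called gene. For Acat2 in Het the mean log2 difference was -0.14 within 14424 and -0.40 within 14526, and for Lss it was -0.34 and -0.76.

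**Figure D3:**
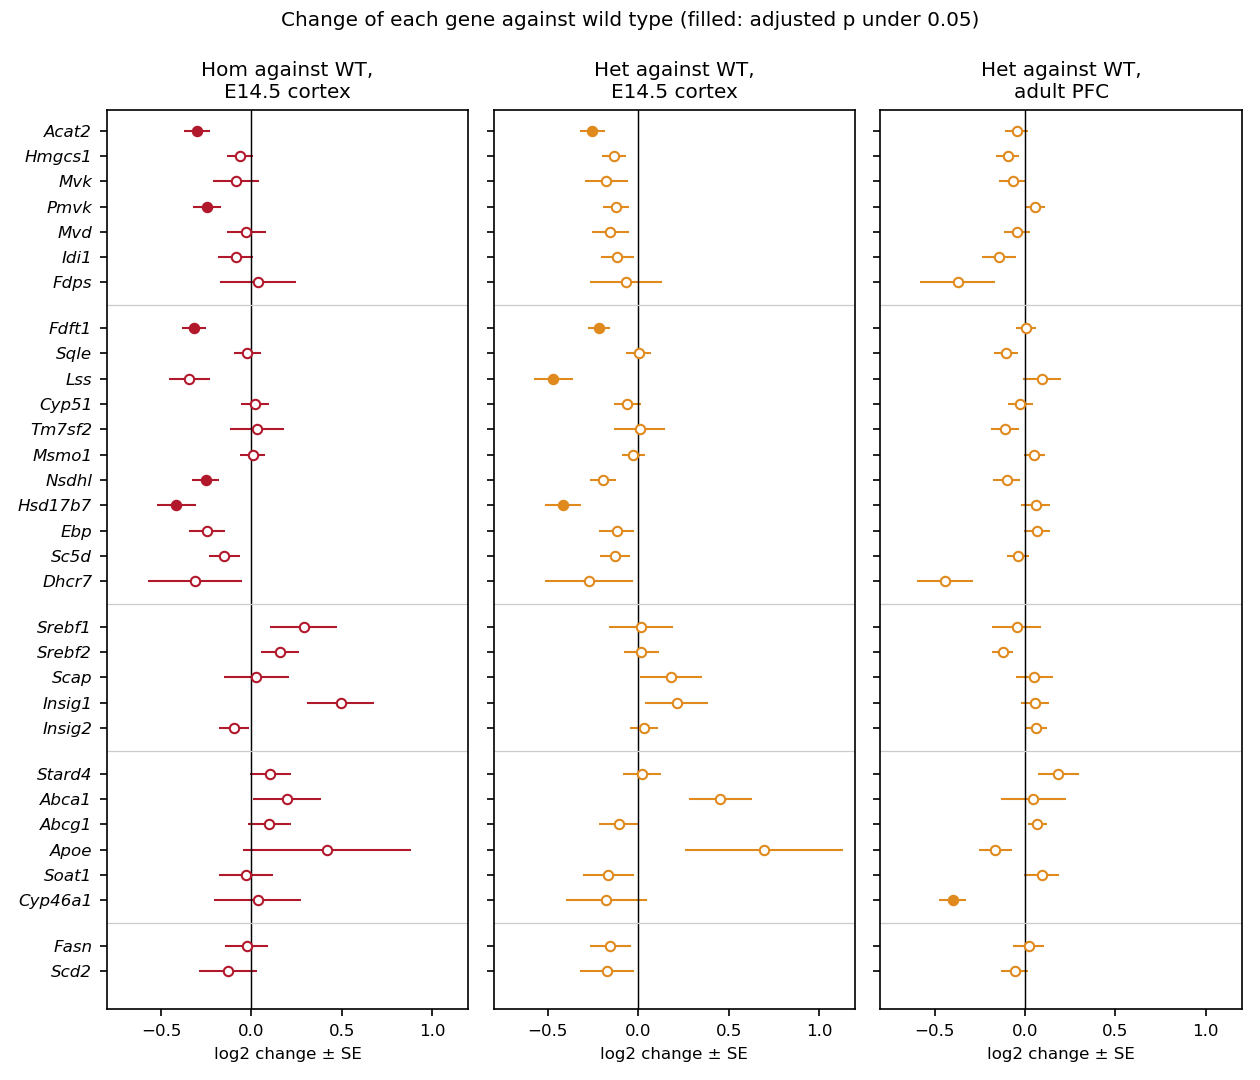
Fitted log2 change (point) with its SE (bar) of each of the 31 genes for Hom against WT and Het against WT in E14.5 cortex and Het against WT in adult PFC. Filled points passed the adjusted p of 0.05. The filled points of the embryo, 5 in Hom and 4 in Het, are all sterol enzymes at or below -0.22, and the single filled point of the adult is Cyp46a1 at -0.40.

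The rest of the mevalonate enzymes did not pass the test at E14.5. Hmgcs1, which makes HMG-CoA, had a log2 change of -0.06 in Hom and -0.13 in Het, Mvk (mevalonate kinase) of -0.09 and -0.18, Mvd of -0.03 and -0.15, and Idi1 of -0.09 and -0.12. In this group of 7, 6 changes were negative in Hom, with a median of -0.09, and all 7 in Het, with a median of -0.13. The median over all tested genes was 0.02 in Hom and 0.03 in Het. Mvd lies within the annotated gene Gm20388 on the opposite strand over 9822 bases, so its reads are uncertain in the same way as those of Lss. The same holds for Hmgcs1, which overlaps an antisense gene, Gm48342, over 6190 bases. Tm7sf2, of the later steps, shares 532 bases with Vps51 on the same strand.

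Among the 11 later enzymes, 8 changes were negative in Hom, with a median of -0.25, and 9 in Het, with a median of -0.13. Ebp, the sterol isomerase, had a change of -0.25 in Hom (limma adjusted p = 0.134) and -0.12 in Het. Sc5d had -0.15 and -0.13, and Dhcr7, the last reductase, -0.31 and -0.27, with an SE of 0.26 in Hom. By contrast, Sqle, the squalene epoxidase, had -0.02 in Hom and 0.00 in Het, and Msmo1 had 0.01 and -0.03. The 95% interval for Sqle ran from -0.18 to 0.13 in Hom and from -0.14 to 0.15 in Het, so a change of the size of Fdft1 in Hom lay outside both. Cyp51, the lanosterol demethylase, had 0.02 and -0.06, and Tm7sf2 0.03 and 0.01. Of these 11 enzymes, Fdft1, Nsdhl and Hsd17b7 were the 3 called lower in Hom.

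None of the 5 genes of SREBP control was called in limma, and 1 had an unadjusted p under 0.05 in Hom and 0 in Het. Insig1, which retains the SREBP complex in the endoplasmic reticulum, had the largest change, 0.49 in Hom (SE 0.19, limma adjusted p = 0.118) and 0.21 in Het. It stood at 55.7, 56.1, 86.7 and 92.5 CPM in Hom against 43.0 to 60.7 CPM in WT and 45.2 to 106 CPM in Het. The Hom libraries thus fell into a low and a high pair, and the low pair lay within the WT range. When Het M11, the highest Het library, was left out, Insig1 was called higher in Hom at 0.50 (limma adjusted p = 0.0471). That was the only call of Insig1 in Hom, in 1 of 33 alternatives. Het M11 enters the Hom comparison only through the shared spread and sex term. The fit without it called 468 of all tested genes higher, against 401 in the main fit. Srebf2 had a change of 0.16 in Hom and 0.02 in Het, and Srebf1 0.29 and 0.02. Scap, which escorts SREBP to the Golgi, had 0.03 and 0.18, and Insig2, the second retention factor, -0.10 and 0.03.

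No gene of transport, storage or turnover was called in limma at E14.5 either (0 with an unadjusted p under 0.05 in Hom, 1 in Het), and nor was Fasn (fatty acid synthase) or Scd2. Abca1, which loads cholesterol on lipoproteins, had a change of 0.20 in Hom and 0.45 in Het (SE 0.17, limma adjusted p = 0.122). All 6 Het libraries were above the WT mean of 6.62 CPM, at 7.36 to 12.5 CPM, while WT F05 at 9.70 CPM stood above the other WT libraries. Apoe varied most, from 6.94 to 31.2 CPM in WT, from 15.8 to 40.5 CPM in Het and at 9.60, 17.7, 21.1 and 38.6 CPM in Hom, with SEs of 0.47 in Hom and 0.44 in Het. Abcg1, Soat1 (which esterifies cholesterol) and Stard4 (a sterol carrier) had changes between -0.17 and 0.10 in both comparisons. Fasn had -0.03 in Hom and -0.15 in Het, and Scd2 -0.13 and -0.17.

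The 18 sterol enzymes were also averaged within each library, as the log2 deviation from the WT mean. All 10 mutant embryos were below 0, the highest being Het M07 at -0.07 and the lowest Hom F09 at -0.19. The WT embryos ran from -0.08 in F05 to 0.09 in M03. WT F05 and F06 thus lay as low as the highest mutant libraries, and the groups overlapped. The mean deviation over all tested genes was between -0.02 and 0.07 in every embryo. In the PFC the Het libraries ran from -0.10 to -0.0041 and the WT libraries from -0.07 to 0.08.

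**Figure D4:**
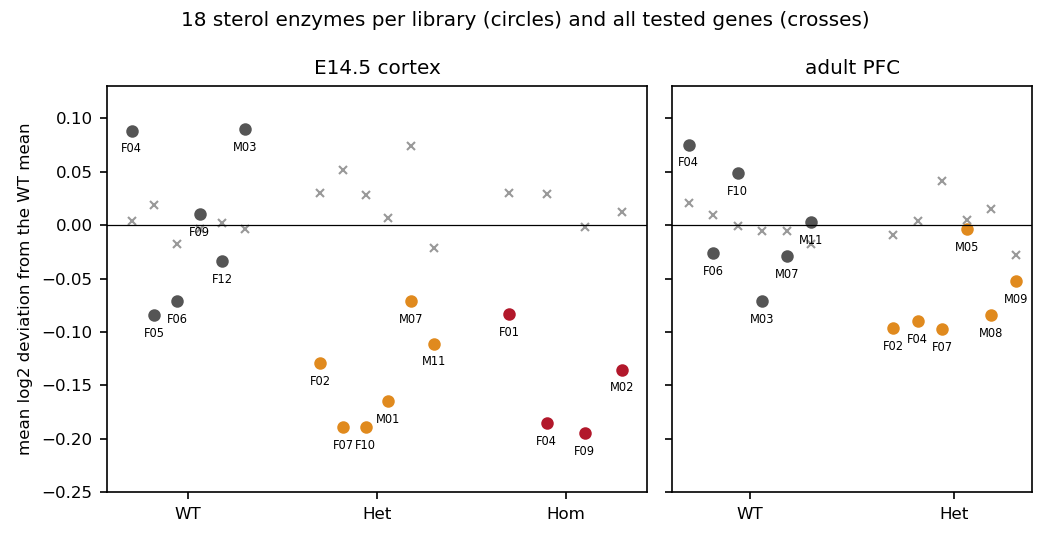
Mean log2 deviation from the WT mean of the tissue over the 18 sterol enzymes (circles, labelled with the library) and over all tested genes (crosses), 1 column of libraries per group. All 10 mutant embryos lie below 0, between -0.19 and -0.07, and WT F05 and F06 lie at the upper end of that range.

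After the means of genotype and sex were removed, the enzymes hardly varied together as a set, although single pairs differed widely. The median Pearson correlation over 153 pairs of the 18 enzymes was 0.09 across the 16 E14.5 libraries and 0.09 across the 12 PFC libraries, against 0.009 and 0 over all pairs of tested genes. Single pairs ran from -0.55 to 0.88 at E14.5 and from -0.90 to 0.90 in the PFC. In the PFC the median correlation of an enzyme with the others ran from -0.30 for Pmvk to 0.36 for Cyp51. The libraries share scaling and the removal of unwanted variation, so this is a description only. Fasn and Scd2, the pair of fatty acid enzymes, had a correlation of 0.75 at E14.5.

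Other cell types were followed beside these falls, and their part in them was not tested. Of 12 astrocyte markers 10 were listed at E14.5 and 8 tested, and their summed level was 1148 to 1237 CPM in Hom and 1141 to 1442 CPM in Het against 1355 to 1467 CPM in WT. Most of that sum was Aldoc, a glycolytic enzyme, which fell from 881 to 654 CPM in Hom (limma adjusted p = 0.00216) and to 668 CPM in Het (adjusted p = 0.00361), while Aqp4 had group means of at most 0.676 CPM and Gfap of at most 0.332 CPM. Over the 8 tested markers, 4 changes were negative in Hom, with a median of -0.09 and a range from -0.42 to 0.47. In Het 5 were negative, with a median of -0.06 and a range from -0.39 to 0.52. The 10 cortical neuron markers, all tested, summed to 5749 to 6593 CPM in Hom, 5844 to 6985 CPM in Het and 6409 to 7357 CPM in WT. That sum is mostly Tubb3, the neuronal tubulin, which was called lower in both. Over the 10 genes the median log2 change was 0.19 in Hom and 0.23 in Het, with 3 and 2 negative, and in Het Camk2a was also called lower and Neurod6 higher. The 9 radial glia markers, 8 of them tested, summed to 1675 to 2016 CPM in Hom, 1635 to 2150 CPM in Het and 1479 to 1876 CPM in WT, with Sox2 called higher and Prom1 lower in Hom. The 7 of 9 choroid plexus markers that were listed summed to 1622 to 2928 CPM in Hom, 3041 to 5271 CPM in Het and 1443 to 4047 CPM in WT, with none called, and the median change of the 7 was -0.07 in Hom and 0.41 in Het. Of the 10 endothelial and pericyte markers 8 had negative changes in Hom, with a median of -0.48 and none called, and they summed to 62.6 to 109 CPM in Hom against 61.9 to 128 CPM in WT. All 9 mitochondrially encoded genes had positive changes in both comparisons, with mt-Co3 called higher in Hom and mt-Co2 and mt-Co3 in Het. They summed to 6772 to 10923 CPM in Hom, 6568 to 10992 CPM in Het and 5944 to 9034 CPM in WT. The 11 markers of meninges and fibroblasts, 10 of them tested, summed to 369 to 426 CPM in Hom, 326 to 552 CPM in Het and 237 to 461 CPM in WT. In Het, 9 of the 10 had positive changes, with a median of 0.24, and Ogn and Aldh1a2 were called higher. The 8 erythroid markers had 7 negative changes in Hom, with a median of -0.26 and none called. They summed to 7392 to 12319 CPM in Hom, 10311 to 18472 CPM in Het and 8326 to 16177 CPM in WT. An unadjusted limma p under 0.05 was found in Hom for 4 of 10 endothelial and pericyte, 0 of 7 choroid plexus and 0 of 8 erythroid markers. In Het these numbers were 1, 2 and 0. Over all 12429 tested genes they were 2885 in Hom and 2772 in Het. No marker of these lists was at 0 in all libraries of a group.

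Promoter windows from RefSeq (GRCm38.p6, from 250 bases before to 50 after each start) were found for 25 of the 31 genes. Sterol genes are known to be bound by SREBP at sterol regulatory elements with NF-Y and Sp1 at nearby boxes. Motifs were searched on both strands, as the letters CCAAT for NF-Y, GGGCGG for the GC box, TCACNCCAC for the sterol regulatory element and AAGTTT for the MYT1L core. CCAAT was found in 21 of the 25 genes (84%) against 41.1% of all 27025 genes, and GGGCGG in 22 (88%) against 38.2%. The exact sterol element was found in 1 gene, Hmgcs1, 137 bases before the start, against 1.44% of all genes. Without its last base it was found in 4 of 25 (16%), which were Hmgcs1, Srebf2, Msmo1 and Apoe, against 4.97%. AAGTTT was found in 3 of 25 (12%), which were Acat2, Srebf2 and Tm7sf2, against 16.3%, and in Acat2 it lies within the transcript. A match is a run of letters and not a measured binding site. The 27025 genes include genes not tested in these tissues, while all 31 genes described here passed the filter. A gene counted if any of its windows held the letters, and Dhcr7, Srebf1, Insig2 and Apoe had 3 windows each. These shares are thus not those of matched genes.

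Stretches upstream of the outermost annotated start, RefSeq's or GENCODE's, are shown for the 5 genes called in embryos that have an entry, with CCAAT or its reverse complement ATTGG in capitals. The Hmgcs1 stretch is shown for its sterol element, in capitals. Each is written 5′ to 3′ on the strand of its gene. The coordinates on GRCm38.p6 are chr17:12960748-12960875 (minus strand) for Acat2, chr3:89454391-89454540 (plus) for Pmvk, chr1:169969242-169969355 (minus) for Hsd17b7, chr10:76531455-76531587 (plus) for Lss, chrX:72918371-72918520 (plus) for Nsdhl and chr13:119690174-119690262 (plus) for Hmgcs1.
Acat2: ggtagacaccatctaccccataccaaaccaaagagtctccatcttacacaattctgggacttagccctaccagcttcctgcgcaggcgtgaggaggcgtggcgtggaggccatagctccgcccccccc
Pmvk: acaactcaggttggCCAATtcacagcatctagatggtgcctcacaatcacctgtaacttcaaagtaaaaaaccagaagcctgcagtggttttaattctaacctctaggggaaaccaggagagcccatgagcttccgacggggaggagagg
Hsd17b7: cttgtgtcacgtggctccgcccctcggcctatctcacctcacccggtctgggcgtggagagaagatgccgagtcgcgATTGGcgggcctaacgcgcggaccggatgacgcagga
Lss: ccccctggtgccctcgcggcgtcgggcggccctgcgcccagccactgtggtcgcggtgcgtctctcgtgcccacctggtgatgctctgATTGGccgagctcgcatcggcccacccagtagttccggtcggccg
Nsdhl: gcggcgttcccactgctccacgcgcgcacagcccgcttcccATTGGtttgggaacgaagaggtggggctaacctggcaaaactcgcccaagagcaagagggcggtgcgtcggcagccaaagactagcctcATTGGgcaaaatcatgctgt
Hmgcs1: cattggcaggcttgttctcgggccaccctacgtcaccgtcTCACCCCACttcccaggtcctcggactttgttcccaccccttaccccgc
The stretch of Nsdhl holds 2 of the 4 NF-Y boxes in its window and that of Hsd17b7 holds 1 of 3, the others lying outside the printed bases. Those of Pmvk and Lss hold 1 each, and that of Acat2, the gene with the highest level in WT embryos, holds 0. Hmgcs1, with the sterol element, was not called in either comparison, and none of the 5 called genes holds that element in the window. The exact letters were found in only 1 of the 25 genes searched, so their absence from these 5 carries no information on SREBP binding.

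Further genes of sterol and lipid metabolism, outside the 31, were followed in 4 lists that were also chosen with earlier results of these data known. Their counts stand beside 4.37% of all tested genes called lower in Hom and 2.98% in Het, so 1 call in a list of this size is near the background. Unadjusted p-values under 0.05 were found for 2885 genes in Hom and 2772 in Het of the 12429 tested. Among 7 tested sterol enzymes, 1 was called higher in Hom: Ggps1, which makes geranylgeranyl diphosphate from farnesyl diphosphate, with a log2 change of 0.36 (limma adjusted p = 0.0168). In Het, 1 of the 7 was called lower: Acly, which supplies cytosolic acetyl-CoA, at -0.40 (adjusted p = 0.0290).

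Among 14 tested regulators, Tmem97, a sterol-responsive membrane protein, was called lower in Hom at -0.25 (limma adjusted p = 0.0424), and 0 were called in Het (1 with an unadjusted p under 0.05). Of 12 tested export genes and apolipoproteins, Clu, a lipid-carrying chaperone, was called lower in Hom at -0.36 (adjusted p = 0.0184), and 0 in Het (0 unadjusted). Of 20 tested genes of fatty acid synthesis, Lpin1, a phosphatidate phosphatase, was called lower in Hom at -0.41 (adjusted p = 0.0481), and 0 in Het (4 unadjusted). In all 4 lists, 0 genes were called in limma in the PFC. There an unadjusted p under 0.05 was found for 1 of 7 sterol enzymes, 2 of 15 regulators, 4 of 13 export genes and 6 of 18 fatty acid genes, beside 1749 of all 12870 genes.

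In adult PFC, 1 of the 31 genes was called lower in Het and 0 were called higher, against 0.225% of all tested genes called lower and 0.179% called higher. That gene was Cyp46a1, which turns cholesterol into 24-hydroxycholesterol in neurons, the form that leaves the brain. It was at 203, 250.4, 259, 345.5, 347 and 353 CPM in Het and at 343, 378, 382, 383, 389 and 401 CPM in WT. The 3 Het females were the lowest of the Het group, all below every WT library, while the 3 Het males lay between WT F06, the lowest WT library, and the other WT libraries. In limma this was a log2 change of -0.40 (SE 0.08, adjusted p = 0.0283), from 379 to 293 CPM, and all 6 Het libraries were below the WT mean. No gene of the 31 had the Het group wholly below WT, against 0.319% of all tested genes. An unadjusted limma p under 0.05 was found in the PFC for 3 of the 31 genes, beside 1749 of all 12870.

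**Figure D5:**
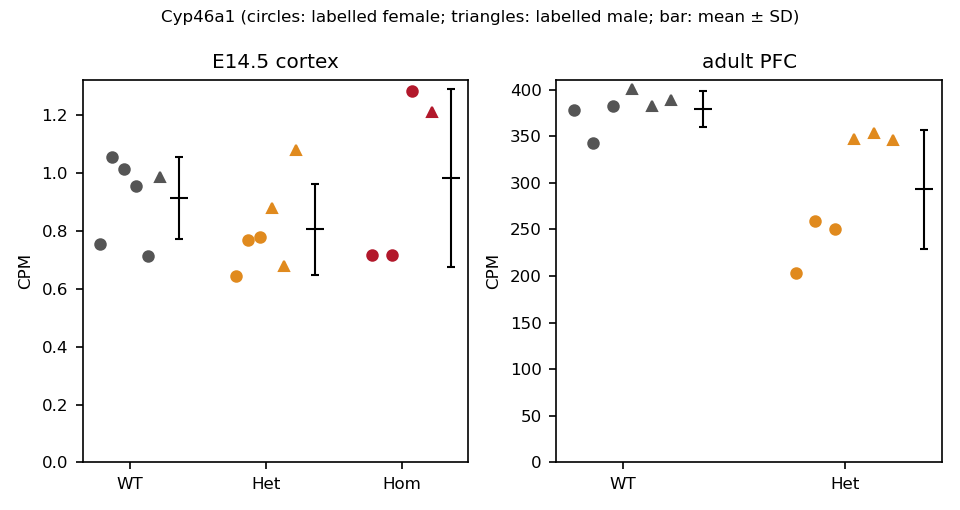
CPM of Cyp46a1 by library in E14.5 cortex (left) and adult PFC (right), with labelled females as circles, labelled males as triangles and the group mean ± SD beside them. The axes differ: embryos lie between 0.644 and 1.28 CPM. In the PFC the 3 Het females lie between 203 and 259 CPM and the 3 Het males between 345.5 and 353 CPM.

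Split by sex after these values had been seen, the change of Cyp46a1 was -0.64 in females (SE 0.08, limma adjusted p = 0.000275) and -0.16 in males (SE 0.08, adjusted p = 0.993). In this model, fitted over both sexes, Cyp46a1 was the 1 gene of the 31 called in females, where 2.75% of all tested genes were called, and 0 of the 31 were called in males, where 0.00777% of all genes were (0 of the 31 had an unadjusted p under 0.05). The difference between the sexes, -0.47 (SE 0.12), had an unadjusted p of 0.000472 in limma and failed the correction, with an adjusted p of 0.256. No gene passed that test of the difference, and 1092 had an unadjusted p under 0.05. A separate fit of the female libraries alone called Cyp46a1 and Dhcr7, at -0.64 each. Over all genes that fit called 149 higher and 199 lower of 12866, against 23 and 29 in the main fit. The difference went with a difference in identifiers, since the 3 Het females carry the prefix 14309 and 2 of the 3 Het males the prefix 14308. The mean log2 difference was -0.51 within 14309 and -0.16 within 14308, so sex and prefix cannot be told apart for most of these animals. Het M09, the Het male with prefix 14309, was at 345.5 CPM. The Het females of that prefix were at 203 to 259 CPM, and the Het males with prefix 14308 at 347 and 353 CPM.

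The Cyp46a1 call was lost without WT F04 (-0.36, limma adjusted p = 0.0694), WT F10 (-0.36), WT M11 (-0.43), Het F04 (-0.40) or Het F07 (-0.39), with adjusted p up to 0.0968 in these 5 fits. It was also lost with the identifier prefix as a block (-0.36, adjusted p = 0.0755), without trend and robust moderation (adjusted p = 0.173) and without the sex covariate (adjusted p = 0.235). All 10 cortical neuron markers were tested, none was called, and their sum ran from 10629 to 12100 CPM in Het and from 10906 to 11499 CPM in WT. The 12 astrocyte markers summed to 4144 to 4856 CPM in Het and 4232 to 4862 CPM in WT, with none called. Of the erythroid markers, 5 of 8 were listed and Hbb-bt was called lower, with 5 of 5 changes negative, a median of -0.36 and sums of 318 to 503 CPM in Het and 333 to 576 CPM in WT. Of the 10 microglia markers 9 had negative changes, with a median of -0.12, none called and sums of 663 to 771 CPM in Het and 666 to 808 CPM in WT. The 10 tested markers of meninges and fibroblasts also had 9 negative changes, with a median of -0.14, none called and sums of 94.7 to 127 CPM in Het and 105 to 138 CPM in WT. Few genes were called in the PFC at all, 23 higher and 29 lower of 12870, so the lack of a call says little. An unadjusted limma p under 0.05 was found for 2 of 10 neuron, 0 of 12 astrocyte and 4 of 5 erythroid markers. For microglia it was 3 of 10 and for meninges and fibroblasts 1 of 10, beside 1749 of all 12870 genes. The part of these cells in the Cyp46a1 result was not tested.

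The enzymes that fell in embryos had other values in the adult. In Het PFC the log2 change was -0.05 for Acat2, 0.01 for Fdft1, 0.09 for Lss, 0.06 for Hsd17b7, -0.10 for Nsdhl and 0.05 for Pmvk, and none was called. The 95% interval of Acat2 ran from -0.18 to 0.08 and that of Lss from -0.12 to 0.31. Whether the Het change differs between the ages was not tested, since the tables were normalized separately.

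Dhcr7, which makes cholesterol from 7-dehydrocholesterol, had the largest change among the 18 enzymes in the PFC. It was at 28.7 to 52.0 CPM in Het with a median of 35.6 and at 38.0 to 62.6 CPM in WT with a median of 50.9. The groups overlapped, and 5 of 6 Het libraries were below the WT mean. The change was -0.45 (SE 0.15, limma adjusted p = 0.227) and passed the test only in 3 of 27 alternatives, among them the fit without Het M05, at -0.55 (adjusted p = 0.0486). The fit without Het M05 called 90 of all tested genes lower, against 29 in the main fit. Srebf2 had a change of -0.12 (SE 0.06, adjusted p = 0.345), with all 6 Het libraries below the WT mean of 95.4 CPM. Apoe was at 3615 to 5361 CPM in Het and 4538 to 5580 CPM in WT, a change of -0.17 (adjusted p = 0.442). Abcg1 had 0.07 and Abca1 0.05, and the 2 fatty acid enzymes had 0.02 (Fasn) and -0.06 (Scd2).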

How the data were processed

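Per the labels, libraries were built with a SMARTer Ultra Low kit from total RNA (Zymo extraction). Build mm10 and the tools HTSeq, STAR, Bowtie2 and Trimmomatic are named per the submitters' processing notes. The sources used here give no versions, roles or strand setting. The authors deposited log2 CPM values after RUVr (removal of unwanted variation), 1 table per tissue. CPM was recovered from the log2 steps, and with a tolerance of 0.01 all values (100%) came out as whole numbers at 0.0335 to 0.0344 CPM a step at E14.5 and 0.0486 to 0.0495 CPM in the PFC. These are adjusted numbers, not read counts, so limma was used and precision rests on the libraries.

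The filter was 1 CPM or more in 4 (E14.5) or 6 (PFC) libraries. Tests on log2(CPM + 0.5) were two-sided and used lmFit and eBayes (trend, robust) of limma 3.58.1 under R 4.3.3. Genotype and labelled sex were fitted over the whole tissue at once, and Benjamini-Hochberg adjustment ran over all tested genes. The fit was tested on simulated data. The simulated libraries were independent and held no removed directions, so that test cannot show whether the removed directions make the p-values too small. Animals are separate by label, but litters are not stated. Identifiers matched GENCODE vM21 on GRCm38 for 13840 of 13846 and 14098 of 14104 genes, and transcript lengths and overlaps came from it. The 31 genes, the other lists and the naming rule (all 31, and each other list gene called in any comparison) were chosen with earlier results of these data known. The split by sex was added after values had been seen. Alternatives covered pseudocounts, filters, scaling, covariates, removed directions, GC content and length, and left-out libraries. Figures were drawn with matplotlib 3.10.9. The list of receptors and sterol carriers is not reported here.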

Additional observations from a re-analysis of the deposited data

Results flagged for a closer look

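In 7 of 155 groups of 4 or 6 libraries, counting each gene in each group, 1 library stood far from the others. Chance alone flags about 1 in 20 such groups. WT embryo F05 accounts for 4 of the 7: it was low for Fdft1 at 477 CPM (the nearest other WT library was at 534), for Nsdhl at 104.5 CPM (nearest 120.4) and for Tm7sf2 at 8.92 CPM (nearest 10.7), and high for Abca1 at 9.70 CPM (nearest 6.57). Hom embryo F09 was low for Nsdhl at 88.0 CPM (nearest 106). Het embryo M11 was high for Sqle at 100.05 CPM (nearest 89.6). In the PFC, Het F07 was high for Abca1 at 9.06 CPM (nearest 4.62). Without Hom F09 the Nsdhl change in Hom was -0.18 and was not called in limma.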

How the results depend on the processing

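No paired analysis was possible because the numbers in the labels are animal numbers that pair no libraries. With the identifier prefix as a block, the genes called lower numbered 3 in Hom, 3 in Het and 0 in the PFC, against 5, 4 and 1. No called gene turned its direction in any alternative. In Hom, 2 genes were called lower without trend and robust moderation, 2 with the removed directions as covariates, 2 in libraries labelled female and 0 in the most common prefix. In Het these numbers were 1, 2, 1 and 0, with 2 after the GC and length correction and 2 when only the compared groups were fitted. Over all tested genes, the lower calls in the same fits were 245, 313, 435 and 41 in Hom. In Het they were 111, 188, 261 and 0, with 208 after the GC and length correction and 219 with only the compared groups. In the PFC, 0 were called lower without trend and robust moderation and 0 without the sex covariate, but 2 in females and 2 in the most common prefix, the second being Dhcr7. Over all tested genes these PFC fits called 0, 2, 199 and 109 lower, against 29 in the main fit. With 1 library left out at a time, the genes called lower ranged from 2 to 6 in Hom, from 1 to 4 in Het and from 0 to 2 in the PFC, and those called higher from 0 to 1 in Hom. Over all tested genes, the 401 higher and 543 lower calls in Hom became 294 and 746 after centring each library on its median, 353 and 371 in Het became 213 and 509, and 23 and 29 in the PFC became 20 and 51. With TMM scaling the Het calls were 281 and 508 and the PFC calls 24 and 53. Over all alternatives, the lower calls among all genes ranged from 41 to 755 in Hom, from 0 to 591 in Het and from 0 to 199 in the PFC. The cause of these shifts was not tested. Without the pair of embryos whose Y-linked transcripts go against the label, Fdft1 was no longer called in Het, at -0.20. Of 33 alternatives, Fdft1 was called in Hom in 32, Acat2 in 31, Hsd17b7 in 28, Nsdhl in 19 and Pmvk in 16, and in Het Hsd17b7 and Lss in 30 each, Acat2 in 23 and Fdft1 in 16. Cyp46a1 was called in the PFC in 19 of 27. The depth is unknown, so no limit from counting can be given.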
